A study of Mus musculus with 2 samples.

Results

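The 9 genes described here mark where a T cell is placed between circulation and tissue. They were chosen by symbol from the 32285 genes listed in each of 2 droplet single-cell RNA libraries. S1pr1, Klf2, Klf3, Tcf7, Il7r and Lef1 are egress, naive and memory genes, and Cd69, Itgae and Xcl1 are residency and contact genes. The library labelled KO came from CD200R1-/- mice and the library labelled WT from wild-type mice. All animals were C57BL/6J, 18 months old and untreated, and cells were taken from perfused brains by magnetic selection for CD11b, a myeloid surface protein. Parkinson's disease stands in the title of the study, no disease model is given for these mice, and how many mice entered a library is not known. T cells were the kept cells with at least 3 UMIs (unique molecules) summed over Cd3e, Cd3d, Cd3g, Trac and Trbc2, which gave 239 of 17117 kept cells in KO and 181 of 16460 in WT. Each genotype has 1 library, so no test between them can be made. Levels are given as CPM, UMIs per 1000000 UMIs of the same cells. A gene is called higher or lower here at a log2 difference of at least 0.32 between the libraries after 10 CPM were added to each, with at least 20 UMIs over both libraries. All intervals are 95% and cover counting error only.

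T cells leave a tissue along a gradient of sphingosine 1-phosphate, which is low in tissue and high in blood and lymph, and S1PR1 is the receptor that reads it. The transcription factor KLF2 drives S1pr1, and TCF1 (the product of Tcf7) and LEF1 maintain the naive and memory programmes. CD69 binds S1PR1 and takes it off the cell surface, so T cells that stay in a tissue usually carry CD69 and have low S1pr1 and Klf2.

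The 9 genes were placed on GRCm38 with GENCODE vM21. S1pr1 lies on chromosome 3 from 115710433 to 115715072 and Lef1 on the same chromosome from 131110471 to 131224356. Klf2 lies on chromosome 8 from 72319033 to 72321656, and Klf3 on chromosome 5 from 64803388 to 64832901. Tcf7 lies on chromosome 11 from 52252371 to 52283014, and Itgae on the same chromosome from 73090583 to 73147446. Il7r lies on chromosome 15 from 9505788 to 9530176, Cd69 on chromosome 6 from 129267325 to 129275436, and Xcl1 on chromosome 1 from 164931644 to 164935527. The counts come from tags at the 3′ ends of transcripts.

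RefSeq promoter windows (GRCm38.p6) were at hand for 6 of the 9 genes. The 250 bases before the start are printed for 2 genes that were lower in KO T cells and for Xcl1, which was higher. Capitals mark matches on either strand to CACCC (a core letter run of KLF sites), CAGGAAGT (ETS) and TAAATTTA (the core of a MEF2 site), and the strand printed is that of the gene. The Klf2 window is chr8:72318812-72319061 on the plus strand. The Lef1 window, at the first of 4 listed starts, is chr3:131110047-131110296 on the plus strand. The Xcl1 window is chr1:164935523-164935772 on the minus strand.
Klf2: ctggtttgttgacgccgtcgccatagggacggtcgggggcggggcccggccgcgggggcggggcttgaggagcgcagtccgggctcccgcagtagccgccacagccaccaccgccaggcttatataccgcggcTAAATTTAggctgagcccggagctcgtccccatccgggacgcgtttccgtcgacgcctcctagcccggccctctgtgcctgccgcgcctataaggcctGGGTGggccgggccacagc
Lef1: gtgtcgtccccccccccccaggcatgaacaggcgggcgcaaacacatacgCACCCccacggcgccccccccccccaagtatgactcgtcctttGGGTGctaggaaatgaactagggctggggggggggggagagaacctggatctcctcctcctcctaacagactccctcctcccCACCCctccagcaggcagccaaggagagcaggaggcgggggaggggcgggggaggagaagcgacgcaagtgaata
Xcl1: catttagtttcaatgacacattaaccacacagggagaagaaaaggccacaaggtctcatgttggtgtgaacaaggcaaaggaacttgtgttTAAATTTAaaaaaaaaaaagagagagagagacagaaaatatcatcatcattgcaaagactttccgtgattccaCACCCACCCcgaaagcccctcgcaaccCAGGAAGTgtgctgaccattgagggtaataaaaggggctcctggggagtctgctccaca
The Klf2 and Xcl1 windows each held 1 match to the MEF2 letters, which 0.502% of the 32851 windows of the same length hold. The Xcl1 window also held 1 match to the ETS letters, against 2.69% of all windows, and the Lef1 window held neither at this start. CACCC stood in all 3 windows, and 52.0% of all windows hold it. GTAAACA (FOXO) was also searched and had no match in the 3 windows, against 3.17% of all windows. These matches describe letters and show no binding.

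Cd200r1, the gene named in the KO genotype, was at 12.1 CPM in KO and 12.8 CPM in WT over kept cells, and at 42.8 CPM in KO and 26.1 CPM in WT in T cells. Which part of the gene is deleted is not given, and a 3′ tag outside it checks nothing. The counts therefore do not check the genotype labels. Depth differed between the libraries in these cells. T cells had a median of 4457 UMIs in KO and 6776 UMIs in WT, so shares of cells are also given as if each cell were thinned to 1000 UMIs. All T cells reached that number. The Cd3, Trac and Trbc2 UMIs were not marginal: 8 KO and 4 WT cells stood at exactly 3, while 19 KO and 23 WT cells with 2 such UMIs fell just outside. Of the T cells, 56.5% in KO and 71.3% in WT had a Cd8a or Cd8b1 UMI. Most T cells lack CD11b, so the selection bears on which T cells were recovered. No T cell barcode was shared by the libraries, and 85 other kept barcodes were. Doublet calls removed 18 T cells in KO and 2 in WT, and the calls, at 3.07% of KO and 0.849% of WT cells, stayed below the 15.3% and 14.6% expected from the loading.

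Many of the counted T cells carried RNA of other cell types. With the full marker lists, 127 KO and 133 WT T cells held at least 5 UMIs of some other class. Some listed markers are also made by T cells (Itm2a, Ly6c1 and Pecam1 of the endothelial list, Ly6c2, Ccr2 and Ms4a4c of the monocyte list and Itgax of the dendritic cell list). With those genes and the NK list left out, 89 T cells in KO and 88 in WT were at or above 5 UMIs of another class. Endothelial markers, whose cells make S1pr1, Klf2 and Lef1 at high levels, summed over the full list to 3441 CPM in KO T cells and 4565 CPM in WT T cells. Microglial markers summed to 1375 CPM in KO and 678 CPM in WT. After those cells were set aside, 150 KO and 93 WT T cells remained, called unmixed here, a set chosen after the data were seen. In unmixed T cells the full endothelial sum was 421 CPM in KO and 348 CPM in WT. Of its 8 markers only Cdh5 was at 0 in WT, and none was at 0 in KO. Without Itm2a, Ly6c1 and Pecam1, 140 endothelial marker UMIs remained in KO and 114 in WT. Both sets are given below.

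All 6 egress, naive and memory genes were lower in KO than in WT T cells, where 11.3% of the 11122 genes measured were called lower and 22.6% higher. The median log2 difference over the 6 was -0.75, against 0.06 over all measured genes. In unmixed T cells all 6 were again lower, with a median of -0.96, where 15.2% of 6546 genes were called lower and 20.7% higher. The genes of the residency group did not move together: in all T cells 1 of 3 was higher and the other 2 were within the limits.

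**Figure D1:**
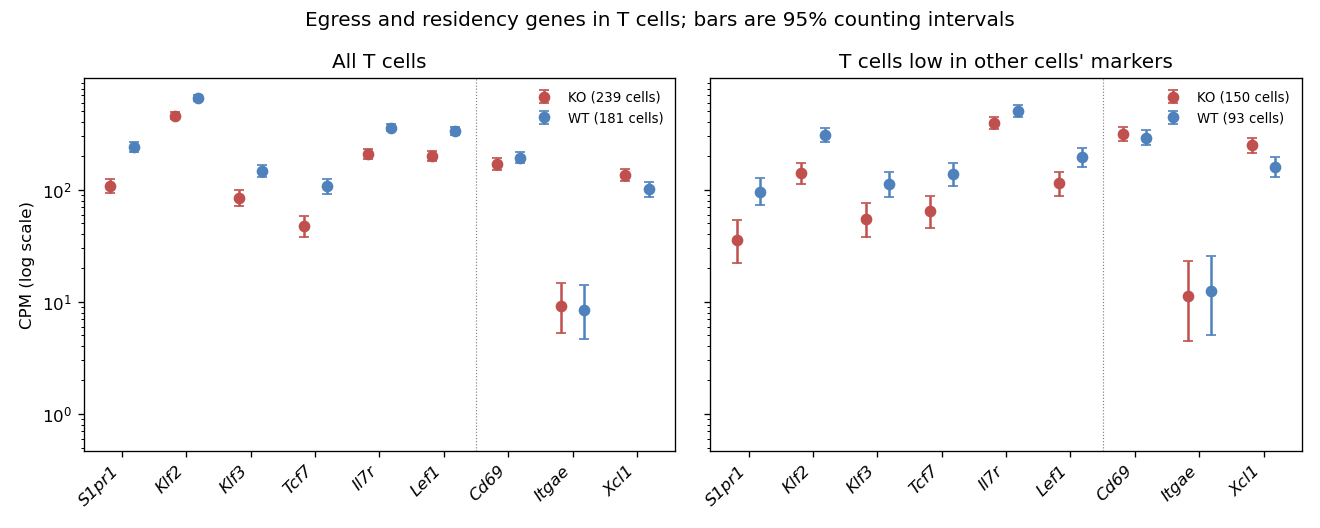
Level of each gene (CPM, log axis) in KO and WT T cells, over all T cells (left) and unmixed T cells (right). Points are summed UMIs over 1 library, and bars are 95% Poisson intervals. The 6 genes left of the dotted line were lower in KO in both panels, and Xcl1 was higher.

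S1pr1, the exit receptor, had 188 UMIs in KO T cells and 398 in WT T cells, which is 107 CPM in KO and 241 CPM in WT. The unmixed T cells held 22 UMIs in KO and 54 in WT, or 35.2 CPM (22.1 to 53.3) in KO and 96.3 CPM (72.3 to 126) in WT. The intervals do not overlap, and the ratio of KO to WT was 0.366 (0.212 to 0.610). Most of the S1pr1 UMIs of the full set, 88.3% in KO and 86.4% in WT, came from the mixed cells. S1pr1 was spread thinly: of the unmixed cells with any S1pr1, 16 of 19 in KO and 15 of 28 in WT had a single UMI.

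Klf2, the activator of S1pr1, reached 458 CPM in KO and 655 CPM in WT over all T cells (log2 -0.51). Unmixed T cells held 88 Klf2 UMIs in KO and 173 in WT, which is 141 CPM (113 to 173) in KO and 309 CPM (264 to 358) in WT. The ratio there was 0.456 (0.349 to 0.593), so the gap was wider than in all T cells. Klf3, a related repressor that shares KLF target sites, stood at 84.0 CPM in KO and 147 CPM in WT over all T cells. In unmixed cells Klf3 was 54.4 CPM in KO and 112 CPM in WT, with a ratio of 0.484 (0.309 to 0.746).

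Tcf7, the gene of the memory factor TCF1, was at 47.4 CPM in KO and 107 CPM in WT T cells. Its unmixed level was 64.0 CPM in KO and 137 CPM in WT, a ratio of 0.466 (0.310 to 0.692). Lef1, its relative, was at 200.0 CPM in KO and 337 CPM in WT over all T cells and at 114 CPM in KO and 196 CPM in WT in unmixed cells, a ratio of 0.579 (0.424 to 0.788). Il7r, the survival receptor of naive and memory T cells, was at 207 CPM in KO and 359 CPM in WT over all T cells. The Il7r gap was smaller in unmixed cells, at 397 CPM (349 to 449) in KO and 506 CPM (449 to 569) in WT, a ratio of 0.783 (0.658 to 0.932).

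Cd69, which holds S1PR1 inside the cell, did not pass the limits in either set. It was at 169 CPM in KO and 193 CPM in WT over all T cells and at 314 CPM (271 to 361) in KO and 291 CPM (248 to 339) in WT in unmixed cells, with overlapping intervals. Xcl1, a chemokine of CD8 T cells and NK cells that attracts cross-presenting dendritic cells, was at 136 CPM in KO and 101 CPM in WT over all T cells, a ratio of 1.34 (1.10 to 1.65). In unmixed cells Xcl1 was at 250.0 CPM (212 to 292) in KO and 160.0 CPM (129 to 197) in WT, a ratio of 1.56 (1.19 to 2.04). NK marker UMIs were found in 15 of 150 unmixed T cells in KO and 21 of 93 in WT. In the 215 KO and 146 WT T cells with no NK marker UMI, Xcl1 was 114 CPM in KO and 81.5 CPM in WT, still called higher. The Xcl1 call held under 15 of 22 other settings, while its direction held under all of them. Itgae, the CD103 integrin that binds E-cadherin, had 16 UMIs in KO and 14 in WT over all T cells, and 7 in each library in unmixed cells, so no difference was detectable at this depth.

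The endothelial share of these levels was estimated, on the assumption that endothelial RNA in T cell barcodes has the make-up of unmixed endothelial cells. The markers used leave out Itm2a, Ly6c1 and Pecam1, and T cells held 3660 UMIs of the rest in KO and 4739 in WT. In unmixed endothelial cells each 1000 UMIs of those markers came with 45.3 S1pr1 UMIs in KO and 57.7 in WT, with 120.0 Klf2 UMIs in KO and 152 in WT, and with 63.7 Lef1 UMIs in KO and 60.3 in WT. Scaled by the UMIs of those markers found in T cells, this equals 166 of the 188 S1pr1 UMIs in KO and 274 of the 398 in WT over all T cells. For Klf2 the level above that amount was 206 CPM in KO and 219 CPM in WT over all T cells. In unmixed T cells the endothelial amount was 6.34 of 22 S1pr1 UMIs in KO and 6.58 of 54 in WT, and 16.8 of 88 Klf2 UMIs in KO and 17.3 of 173 in WT. The levels above it were 25.1 CPM in KO and 84.5 CPM in WT for S1pr1, 114 CPM in KO and 278 CPM in WT for Klf2, and 99.4 CPM in KO and 184 CPM in WT for Lef1. Il7r, Cd69 and Xcl1 had under 1 such UMI in each library. Klf2 and Klf3 are also made by microglia, whose part in the mixed cells was not tested.

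**Figure D2:**
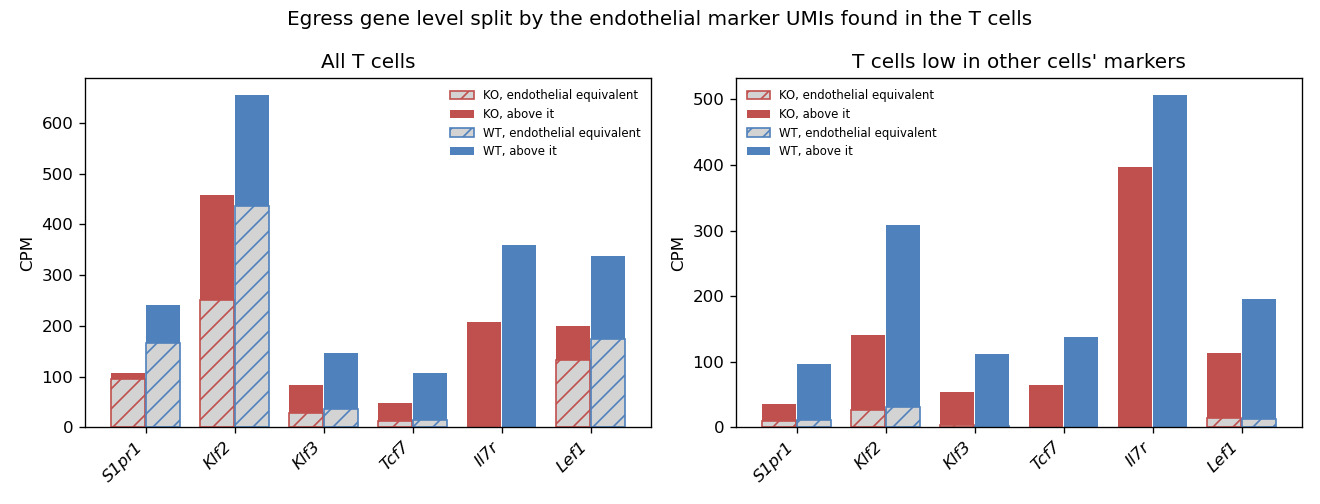
Level of the 6 egress genes (CPM) in KO and WT T cells, split into the estimated amount that matches the endothelial marker UMIs in the same cells (hatched) and the rest (solid). Over all T cells the solid parts of Klf2 are 206 in KO and 219 in WT, and in unmixed T cells they are 114 in KO and 278 in WT.

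A few T cells with Ccr7, a chemokine receptor of naive and central memory cells, were looked at apart. Ccr7 UMIs were found in 3 unmixed T cells in KO and 5 in WT, at median depths of 5797 UMIs in KO and 6351 UMIs in WT. The 3 KO cells held 1 Klf2, 5 Il7r, 1 Tcf7 and 1 Lef1 UMIs of their library. The 5 WT cells held 27 of the 173 Klf2 UMIs, 37 of the 284 Il7r UMIs, 13 of the 77 Tcf7 UMIs and 15 of the 110 Lef1 UMIs of theirs. In the unmixed cells without Ccr7, 147 in KO and 88 in WT, Il7r was within the limits, at 401 CPM in KO and 469 CPM in WT (log2 -0.22). The other 5 genes were still lower there: S1pr1 at 36.3 CPM in KO and 101 CPM in WT (-1.26), Klf2 at 143 CPM in KO and 277 CPM in WT (-0.90), and Tcf7 at 64.3 CPM in KO and 121 CPM in WT (-0.82). Klf3 (-0.78) and Lef1 (-0.60) had the smaller gaps. Xcl1 was at 254 CPM in KO and 167 CPM in WT in the cells without Ccr7, and the cells with it held 2 Xcl1 UMIs in each library.

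Haemoglobin genes were read as a sign of blood. An erythroid marker UMI was found in 3.33% of unmixed T cells in KO and 20.4% in WT. The same share was 5.86% in KO and 19.6% in WT for microglia, cells not known to be a source of it, at median depths of 5249 UMIs in KO and 4280 UMIs in WT. The T cell share in WT is thus at the level of that background. Erythroid markers summed to 11.1 CPM in KO microglia and 47.3 CPM in WT microglia. Other cell types of blood also differed in number among kept cells. Platelets numbered 16 in KO and 159 in WT, neutrophils 89 in KO and 159 in WT, and B cells 57 in KO and 116 in WT. Monocytes went the other way, at 56 in KO and 19 in WT. Whether T cells from blood contribute to the gap was not tested, and fewer such cells and less RNA per cell cannot be told apart in the summed UMIs.

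Splitting the unmixed cells by CD8 left most calls in place. In 78 KO and 63 WT cells with a Cd8a or Cd8b1 UMI, 5 of the 6 egress genes were lower, where 16.9% of 5059 genes were lower and 23.6% higher. Klf2 had the widest gap, at 77.0 CPM in KO and 258 CPM in WT, and Tcf7 stayed within the limits at 82.5 CPM in KO and 104 CPM in WT. In 72 KO and 30 WT cells without a CD8 UMI, 5 of 6 were lower, where 26.3% of 3388 genes were lower and 24.3% higher. There Tcf7 was at 38.3 CPM in KO and 222 CPM in WT, S1pr1 at 42.1 CPM in KO and 165 CPM in WT, and Il7r stayed within the limits at 567 CPM in KO and 686 CPM in WT. Xcl1 was higher in both, at 316 CPM in KO and 183 CPM in WT with CD8 and at 157 CPM in KO and 102 CPM in WT without (ratio 1.54, 0.848 to 2.95). Whether the CD8 and other cells differ in these gaps was not tested.

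Shares of cells with a UMI followed the same order as the sums for the 6 egress genes. Thinned shares are given as the exact mean over all ways of thinning each cell to 1000 UMIs, so they rest on no single draw. Of unmixed T cells, 32.7% in KO (25.2 to 40.8) and 51.6% in WT (41.0 to 62.1) had a Klf2 UMI, and 11.2% in KO and 21.7% in WT after thinning. Tcf7 was in 17.3% of KO (11.6 to 24.4) and 44.1% of WT cells (33.8 to 54.8), and in 4.80% of KO and 12.1% of WT cells after thinning. Klf3 was in 16.7% of KO and 38.7% of WT cells, and in 4.82% of KO and 9.42% of WT cells after thinning. Thinned Lef1 shares were 9.40% in KO and 16.4% in WT, and Il7r shares 26.6% in KO and 34.3% in WT. An Il7r UMI was in 0.0734% of KO and 0.152% of WT unmixed endothelial cells thinned alike. Unmixed astrocytes, where Klf2 was 87.2 CPM in KO and 106 CPM in WT, had thinned Klf2 shares of 9.40% in KO and 15.4% in WT, at median depths of 2451 UMIs in KO and 1980 UMIs in WT in the cells deep enough to thin. Unmixed microglia had thinned Klf2 shares of 23.4% in KO and 21.1% in WT. The KO T cell share of Klf2 was thus near that of astrocytes and below that of microglia. S1pr1 was in 3.48% of KO and 8.44% of WT T cells after thinning. In unmixed microglia the thinned S1pr1 share was 3.43% in KO and 3.98% in WT, at median depths of 5388 UMIs in KO and 4815 UMIs in WT. Unmixed astrocytes had thinned S1pr1 shares of 27.7% in KO and 24.7% in WT. The KO T cell share of S1pr1 was thus at the level of microglia and below that of astrocytes, so neither class is a common floor. Cd69 stood at 24.3% in KO and 24.6% in WT after thinning, and Xcl1 at 18.1% in KO and 10.6% in WT.

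How often egress and residency genes were seen in the same cell depended on depth. As sequenced, 32.7% of unmixed T cells in KO (25.2 to 40.8) and 52.7% in WT (42.1 to 63.1) had a UMI of S1pr1, Klf2 or Klf3 together with Cd69, Itgae or Xcl1. An egress gene and no residency gene was found in 15.3% of KO and 15.1% of WT cells, and a residency gene and no egress gene in 39.3% of KO (31.5 to 47.6) and 23.7% of WT cells (15.5 to 33.6). As the mean over thinnings to 1000 UMIs, egress genes alone were in 12.3% of KO and 22.1% of WT cells, residency genes alone in 32.0% of KO and 24.1% of WT cells, and both in 5.74% of KO and 9.40% of WT cells. The gap in cells with egress genes alone was thus seen after thinning and not before it, while residency genes alone were more frequent in KO in both. In 1 random thinning of all T cells, Cd69 was found in 1 of 11 KO cells and 2 of 20 WT cells with S1pr1.
Unthinned, in unmixed cells, Klf2 was found in 52.6% of KO cells with S1pr1 and in 29.8% of KO cells without, and in 75.0% of WT cells with S1pr1 and 41.5% of WT cells without. Cd69 showed no such gap, at 52.6% with S1pr1 and 54.2% without in KO, and at 71.4% with and 63.1% without in WT. Tcf7 went with S1pr1 in WT, at 64.3% with and 35.4% without, while in KO it was at 21.1% with and 16.8% without. Xcl1 was at 21.1% with S1pr1 and 43.5% without in KO, and at 32.1% with and 36.9% without in WT. The cells behind these shares number 19 with S1pr1 in KO and 28 in WT, and most of the intervals are wide. The Klf2 intervals overlap in KO (28.9 to 75.6 with S1pr1 and 22.1 to 38.4 without). In WT they do not (55.1 to 89.3 with S1pr1 and 29.4 to 54.4 without). Endothelial RNA left in unmixed cells would carry both S1pr1 and Klf2, and its part in these shares was not tested.

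**Figure D3:**
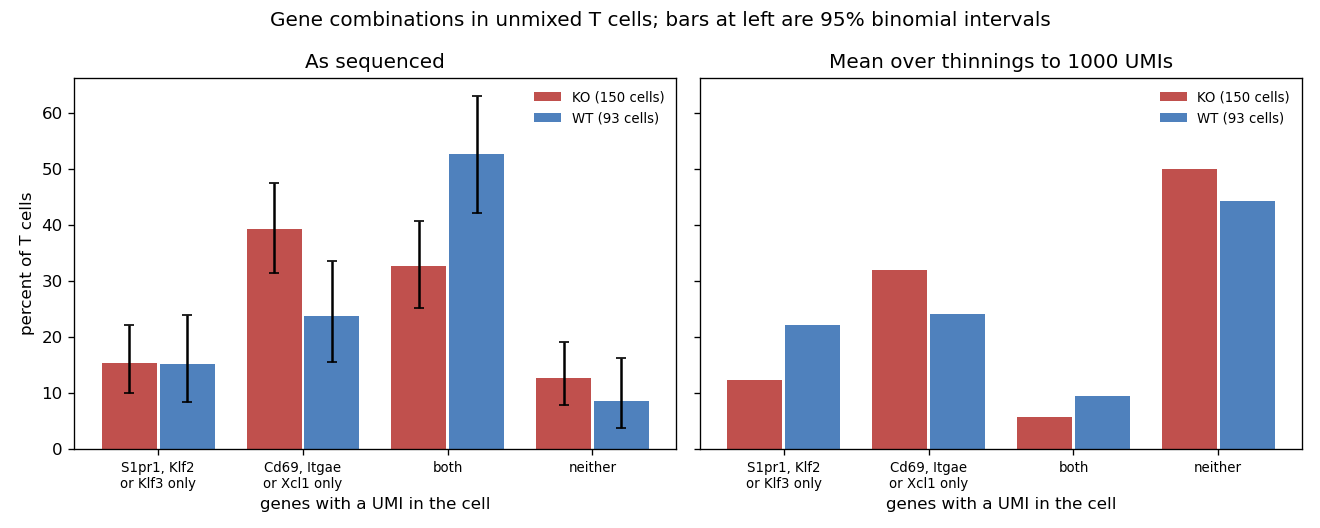
Percent of unmixed T cells by which genes had a UMI, in KO (150 cells) and WT (93 cells), as sequenced with 95% binomial intervals (left) and as the mean over thinnings to 1000 UMIs (right). Egress genes alone were in 15.3% of KO and 15.1% of WT cells as sequenced, and in 12.3% of KO and 22.1% of WT cells after thinning.

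Other cell types carried several of these genes at higher levels than T cells. Cells were assigned to classes from marker UMIs, and 13 of 17 classes had at least 20 cells in each library. Cells with haemoglobin markers are left out of the account, since their endothelial genes went against that label. Among the other compared classes Il7r, Itgae and Xcl1 were highest in T cells in both libraries, and Cd69 was too in unmixed cells. Over all cells Cd69 was highest in B cells, at 216 CPM in KO and 219 CPM in WT, with intervals that overlap those of T cells. In unmixed KO cells the Cd69 level of B cells lay within the interval of T cells. The Itgae intervals of T cells and microglia overlap. Classes with under 20 cells in a library had more of 2 genes than T cells: NK cells had Xcl1 at 909 CPM in KO and 137 CPM in WT, and dendritic cells had Itgae at 166 CPM in KO and 225 CPM in WT. S1pr1, Klf2 and Lef1 were highest in endothelial cells, where S1PR1 keeps vessels tight. S1pr1 there was 557 CPM in KO and 673 CPM in WT, followed by astrocytes at 373 CPM in KO and 371 CPM in WT, with T cells next at 107 CPM in KO and 241 CPM in WT. The intervals of endothelial cells, astrocytes and T cells do not overlap within either library. Lef1, which relays Wnt signals in brain vessels, was 765 CPM in KO and 761 CPM in WT endothelial cells. Tcf7 there was 66.1 CPM in KO and 58.6 CPM in WT, above KO T cells and below WT T cells. Klf3 was spread over many classes. It was highest in endothelial cells in KO, at 173 CPM against 161 CPM in WT, and in neutrophils in WT, at 211 CPM against 146 CPM in KO, and the intervals of endothelial cells and neutrophils overlap in KO.

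**Figure D4:**
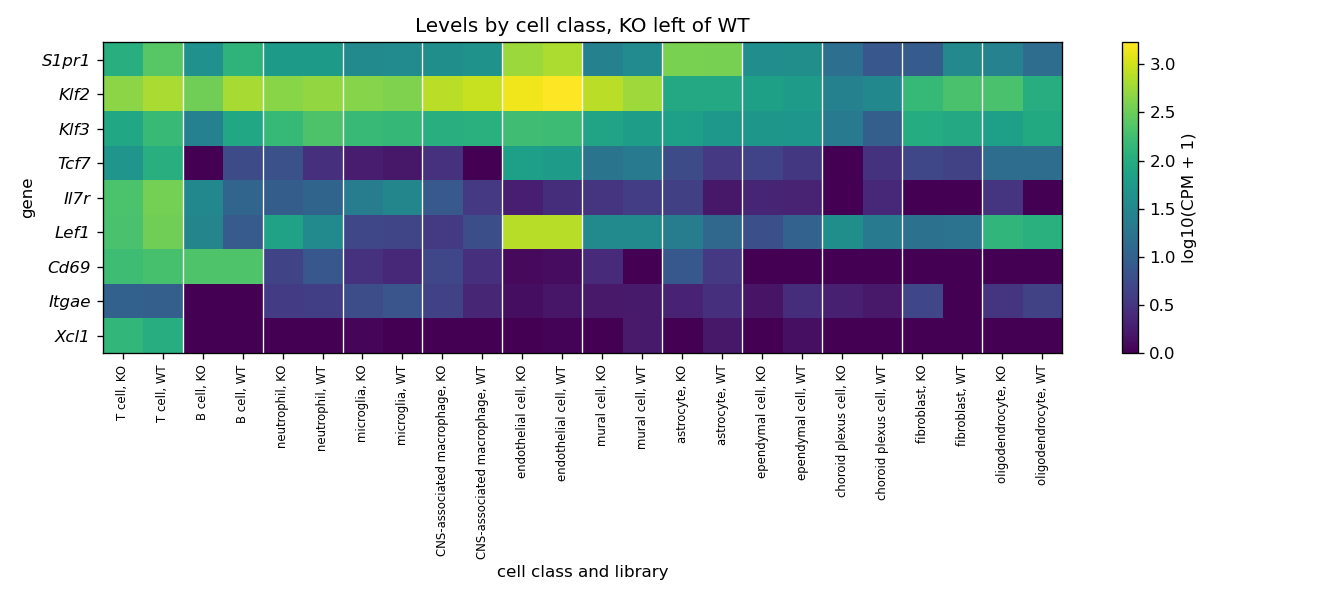
Level of each gene (log10 of CPM plus 1, colour) in the compared cell classes, with KO left of WT in each pair. S1pr1, Klf2 and Lef1 are brightest in endothelial cells, Il7r and Xcl1 in T cells, and Cd69 in B cells and T cells.

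The KO and WT levels of these genes also differed outside T cells. In endothelial cells, where 2.92% of 16364 genes passed the limits in either direction, 0 of the 9 genes did. Klf2 was 1450 CPM in KO and 1692 CPM in WT there, a ratio of 0.857 (0.847 to 0.867), and S1pr1 had a ratio of 0.828 (0.812 to 0.844). Unmixed endothelial cells had S1pr1 at 552 CPM in KO and 695 CPM in WT. In B cells 55.6% of 5991 genes passed the limits, so the 3 of 4 measured members that did so are no result about the members. There S1pr1 was 42.6 CPM in KO and 126 CPM in WT, Klf2 335 CPM in KO and 648 CPM in WT, and Klf3 25.6 CPM in KO and 81.8 CPM in WT, from 57 KO and 116 WT cells. B cell Cd69 was 216 CPM in KO and 219 CPM in WT, and 288 CPM in KO and 228 CPM in WT in unmixed B cells. Mural cells, which wrap vessels, had more Klf2 in KO (773 CPM) than in WT (566 CPM), where 7.36% of 13134 genes passed the limits. S1pr1 went the other way in them, at 25.1 CPM in KO and 34.7 CPM in WT. Microglia, where 2.39% of 16756 genes passed, had Klf2 at 436 CPM in KO and 396 CPM in WT, Klf3 at 150.0 CPM in KO and 142 CPM in WT and Il7r at 22.1 CPM in KO and 29.0 CPM in WT, each within the limits.

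Lists of related genes had smaller median differences than the 6. Beside their counts stand the shares of all measured genes, 11.3% lower and 22.6% higher over all T cells. Those shares were 15.2% lower and 20.7% higher in unmixed cells. Of 14 measured naive and recirculation genes other than the members, 7 were lower and 2 higher in KO over all T cells (median log2 -0.28). Ccr7 had 9 UMIs in KO and 30 in WT, and Satb1, a chromatin organiser of naive T cells, was 68.0 CPM in KO and 153 CPM in WT. Ramp1, a subunit of the CGRP receptor, went the other way at 58.3 CPM in KO and 11.5 CPM in WT, and so did Treml2 with 17 UMIs in KO and 4 in WT. In unmixed T cells 3 of 10 were lower and 2 higher. Satb1 was still lower there, at 114 CPM in KO and 218 CPM in WT. Ccr7 had 6 UMIs in each library there, and Treml2 had 2 in KO and 1 in WT, both too few to be called. Foxo1, the factor upstream of Klf2, was lower over all T cells, at 78.3 CPM in KO and 102 CPM in WT, but 72.0 CPM in KO and 83.8 CPM in WT in unmixed cells, within the limits.
Of 15 measured residency genes beside the members, 2 were higher and 3 lower (median log2 -0.01). P2rx7, an ATP receptor, was 86.8 CPM in KO and 30.9 CPM in WT, and Rgs2 142 CPM in KO and 83.1 CPM in WT. Cdh1, which encodes E-cadherin, had 9 UMIs in KO and 31 in WT, and Itga1, the CD49a integrin, was 175 CPM in KO and 226 CPM in WT. In unmixed cells P2rx7 was 62.4 CPM in KO and 26.7 CPM in WT, while Rgs2 and Itga1 were within the limits. Cxcr6, a residency chemokine receptor, was 286 CPM in KO and 251 CPM in WT in unmixed cells, also within the limits.

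The families around the members were counted in the same way. Over all T cells 11.3% of all measured genes were lower and 22.6% higher. In unmixed T cells 15.2% were lower and 20.7% higher. None of 9 other KLF genes was higher and 3 were lower over all T cells: Klf9 at 101 CPM in KO and 152 CPM in WT, Klf13 at 138 CPM in KO and 204 CPM in WT, and Klf4 at 108 CPM in KO and 159 CPM in WT. At the other end Klf16 (15 UMIs in KO and 12 in WT) and Klf8 (20 in KO and 19 in WT) were within the limits. In unmixed cells those 3 were not called, Klf6 was lower at 282 CPM in KO and 364 CPM in WT, and Klf10 was higher with 15 UMIs in KO and 6 in WT. Of 9 genes of S1P receptors and metabolism 3 were higher and 1 lower, led by the S1P lyase Sgpl1 at 40.0 CPM in KO and 23.6 CPM in WT and the S1P exporter Spns2 at 12.0 CPM in KO and 6.06 CPM in WT. The other higher gene was Plpp3, a lipid phosphatase, at 39.4 CPM in KO and 27.9 CPM in WT, and the lower one was S1pr3, with 8 UMIs in KO and 19 in WT. In unmixed cells 4 genes of this list were measured, with 0 higher and 1 lower. Sgpl1 was 22.4 CPM in KO and 21.4 CPM in WT there, within the limits. Spns2 had 2 UMIs in KO and 0 in WT, Plpp3 9 in KO and 2 in WT, and S1pr3 0 in each. These 3 genes were too low there to be called. S1pr4, another S1P receptor of lymphocytes, had 38 UMIs in KO and 44 in WT over all T cells, within the limits. Among 9 IL-7 signalling genes 1 was higher and 1 lower: Il2rg, the shared chain of the IL-7 receptor, was 129 CPM in KO and 192 CPM in WT over all T cells, but 238 CPM in KO and 257 CPM in WT in unmixed cells. Jak3, the kinase bound to that chain, had 21 UMIs in KO and 10 in WT, while Cish (61.1 CPM in KO and 49.1 CPM in WT) and Stat5b (97.7 CPM in KO and 122 CPM in WT) were within the limits. In unmixed cells 3 of 7 were higher, Cish, Crlf2 and Socs2, and Stat5b was lower at 126 CPM in KO and 169 CPM in WT. Among 7 TCF partners Ctnnb1 was lower, at 135 CPM in KO and 192 CPM in WT, and Tcf7l2 higher, at 58.8 CPM in KO and 37.6 CPM in WT. Tle1 (26.3 CPM in KO and 24.2 CPM in WT) and Tle3 (34.8 CPM in KO and 39.4 CPM in WT), corepressors of the family, were within the limits. In unmixed cells Tcf7l2 had 2 UMIs in KO and 1 in WT, against 103 in KO and 62 in WT over all T cells. Tle1 had 1 UMI in each library there, and both genes were too low to be called. Ctnnb1 was still lower in unmixed cells, at 49.6 CPM in KO and 78.5 CPM in WT.
Of 7 partners of the residency genes 3 were lower: Cdh1, Itgb7, the chain that pairs with CD103 (64.6 CPM in KO and 95.2 CPM in WT), and Itga4 (361 CPM in KO and 457 CPM in WT). Itgb2 (121 CPM in KO and 113 CPM in WT) and Cd44 (71.4 CPM in KO and 69.7 CPM in WT) were within them, as were Itgb7 and Itga4 in unmixed cells. Unmixed cells had more Cd44 in KO (134 CPM) than in WT (89.2 CPM). Of 4 measured subset genes 3 were lower: Zbtb16, a factor of innate-like T cells (40.6 CPM in KO and 86.7 CPM in WT), Cd8a (129 CPM in KO and 189 CPM in WT) and Cd8b1 (229 CPM in KO and 327 CPM in WT). Cd4 was 32.6 CPM in KO and 35.2 CPM in WT. In unmixed cells Zbtb16 had 4 UMIs in KO and 0 in WT, against 71 in KO and 143 in WT over all T cells. Cd8a was within the limits there, at 219 CPM in KO and 271 CPM in WT. So was Cd8b1, at 387 CPM in KO and 421 CPM in WT.

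Effector, stress and interferon genes were counted beside them. Shares of all measured genes were again 11.3% lower and 22.6% higher over all T cells, and 15.2% lower and 20.7% higher in unmixed cells. Among 11 effector genes 3 were higher and 5 lower, with the NK receptor chain Klrd1 at 72.6 CPM in KO and 130.0 CPM in WT, Tbx21 at 48.0 CPM in KO and 75.8 CPM in WT, and Gzma at 69.1 CPM in KO and 40.6 CPM in WT. Zeb2, with the largest log2 difference of the list (0.97), was 358 CPM in KO and 178 CPM in WT. Those values are over all T cells, and in unmixed cells 3 of 11 were higher and 4 lower. There Tbx21 was 102 CPM in both libraries, within the limits. Klrd1 was still lower, at 152 CPM in KO and 203 CPM in WT. Still higher were Gzma, at 128 CPM in KO and 73.1 CPM in WT, and Zeb2. The latter was at 128 CPM in KO and 89.2 CPM in WT, a ratio of 1.44 (0.996 to 2.09). Immediate-early and heat shock genes, which tissue dissociation can induce, split 5 higher and 4 lower of 16 over all T cells and 0 higher and 7 lower in unmixed cells. The 7 lower in unmixed cells were Egr1, Ier2, Junb, Hspa1b, Btg2, Hspa1a and Zfp36. Egr1 was 40.0 CPM in KO and 83.8 CPM in WT there, Ier2 101 CPM in KO and 177 CPM in WT, and Junb 485 CPM in KO and 697 CPM in WT. Atf3 was 165 CPM in KO and 36.4 CPM in WT over all T cells but 28.8 CPM in KO and 33.9 CPM in WT in unmixed ones, and Fos was 402 CPM in KO and 195 CPM in WT over all T cells but 170.0 CPM in KO and 157 CPM in WT in unmixed ones. Hspa1b was 105 CPM in KO and 186 CPM in WT, and Hspa1a 111 CPM in KO and 190.0 CPM in WT, over all T cells. Their part in the Klf2 and Cd69 values was not tested. Of 19 interferon response genes 16 were higher and 0 lower (median log2 0.95), and of 18 in unmixed cells 14 were higher and 0 lower (0.52). Isg15 was 226 CPM in KO and 49.1 CPM in WT, and Ifit1 161 CPM in KO and 40.6 CPM in WT, over all T cells, while Ifi47 (68.0 CPM in KO and 79.4 CPM in WT) and Ifi203 (231 CPM in KO and 221 CPM in WT) were within the limits. Interferon genes were thus the list with the most genes higher in KO T cells, beside the 6 lower egress genes. Microglial markers were also higher in KO, at 1375 CPM in KO and 678 CPM in WT over all T cells. In unmixed T cells they were at 427 CPM in KO and 326 CPM in WT. The part of microglial RNA in the interferon values was not tested.

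Across the 13 classes in both libraries, the genes whose level most resembled S1pr1 were Ddah1 (Pearson r 0.906), Efr3b (0.875) and Stard4 (0.847), out of 8284 genes searched over 26 points. For Il7r they were Slamf1 (0.948), Fam78a (0.943) and Tnfsf8 (0.930), and for Cd69 P2ry10 (0.994), Ptprcap (0.988) and Lax1 (0.978). The points share libraries and depths, so the values are a description.

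**Figure D5:**
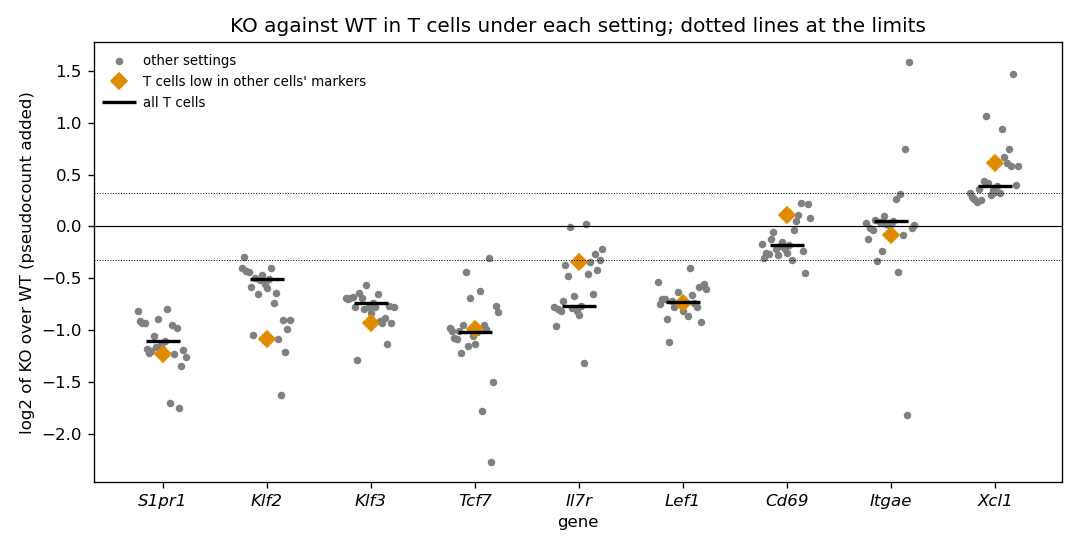
Log2 of KO over WT in T cells for each gene under the reported setting (black bars), in unmixed T cells (orange diamonds) and under the other settings (grey). S1pr1, Klf2, Klf3, Tcf7 and Lef1 stay below 0 in all 22 other settings, Il7r in 21, and Xcl1 stays above 0 in all.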

How the data were processed

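The authors deposited, per library, raw UMI counts per gene and barcode from droplet 3′ sequencing, with 19159 barcodes in KO and 18228 in WT. Per the submitters' processing notes, Cell Ranger 7.0.1, STAR and Seurat 3.1.1 were used with GRCm38/mm10, and no parameters are given in the sources used here. Total depth was 131196245 UMIs in KO and 127429919 in WT.

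A barcode needed 300 genes and 500 UMIs, with mitochondrial UMIs no higher than 10%, and Scrublet calls (scanpy 1.11.5, expected rate 0.8% per 1000 barcodes) were removed per library. A cell was a T cell at 3 or more UMIs of 5 T cell genes, and otherwise took the marker list with at least 5 UMIs and at least 2 times the next list. Sums of UMIs per class in each library were scaled to CPM. Intervals are exact Poisson, exact Clopper-Pearson and conditional binomial (scipy 1.17.1). PCR copies were collapsed by UMI, and intervals cover counting error only. Thinning to 1000 UMIs was without replacement; shares are the exact (hypergeometric) mean over all thinnings, added after seeing that single draws differed. The script was checked on simulated counts. The members, lists and marker sets were chosen with earlier results of these data known, and unmixed T cells were defined after the data were seen. Every member was named, with the 2 highest and 2 lowest genes of each list by log2 ratio over all T cells. Foxo1, Cxcr6, Klf4, Klf6, Klf10, Plpp3, Crlf2, Socs2, Itga4, Egr1, Ier2, Junb, Btg2 and Zfp36 fall outside that rule. They were chosen after their values were seen, as were the values in unmixed cells. Mx1 is not a listed symbol. Of the recirculation list, 1 gene is not reported here.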

Additional observations from a re-analysis of the deposited data

Results flagged for a closer look

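Members that were lower in KO T cells but higher in KO in another class were looked at again, and the difference between classes was not tested. Klf2 in mural cells had a ratio of KO to WT of 1.37, with 3599 UMIs in KO and 3111 in WT, and Klf2 in oligodendrocytes had a ratio of 1.96, with 91 UMIs in KO and 93 in WT. In unmixed oligodendrocytes Klf2 had 7 UMIs in KO and 19 in WT, a ratio of 0.390. Lef1 had a ratio of 2.11 in neutrophils, 1.99 in astrocytes and 1.94 in choroid plexus cells. With the full marker lists, 75 of 89 KO and 105 of 159 WT neutrophils held at least 5 UMIs of another class. The part of RNA from other cells in the neutrophil value was not tested. In choroid plexus cells S1pr1 had a ratio of 2.16, with 32 UMIs in KO and 10 in WT, and Klf3 had a ratio of 2.44, with 47 UMIs in KO and 13 in WT. In unmixed choroid plexus cells S1pr1 had 14 UMIs in KO and 2 in WT, and Klf3 had 9 in KO and 3 in WT. In unmixed astrocytes Lef1 was 16.9 CPM in KO and 17.2 CPM in WT.

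Classes with under 20 cells in a library were left out of the comparisons, yet 2 showed a member higher in KO. Xcl1 in NK cells had a ratio of 6.66, with 55 UMIs in 12 KO cells and 8 UMIs in 13 WT cells, and in 11 KO and 12 WT unmixed NK cells it had 53 UMIs in KO and 8 in WT. Klf2 in monocytes had a ratio of 3.16, with 422 UMIs in 56 KO cells and 75 in 19 WT cells. Of these monocytes, 39 in KO and 15 in WT held at least 5 UMIs of another class with the full marker lists. The part of RNA from other cells in this value was not tested.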

How the results depend on the processing

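The count of egress genes lower in KO T cells was 6 of 6 as reported and 5 to 6 under the 22 other settings. The count of residency genes higher was 1 as reported. It was 0 with a T cell limit of 2 or of 5 UMIs, with Scrublet calls kept in, with no filter on cells, with under 5 UMIs in 6 other marker lists, with 50 CPM added and in cells with a CD8 UMI, and the cause was not tested. Of 198 values of single genes, 143 stayed within counting error, 54 moved further and 1 turned: Il7r was 0.02 in log2 in cells with no CD8 UMI. The settings largely reuse the same cells, and leaving out the UMI minimum cannot change a value. These counts are therefore no independent check. A random thinning of all T cells gave Il7r -0.01 and another of unmixed T cells -0.42, while the mean over cells gave -0.46. The log2 value of S1pr1 ran between -1.75 and -0.80, that of Klf2 between -1.62 and -0.29, and that of Xcl1 between 0.24 and 1.47. The genes highest in T cells numbered 3 as reported and 4 in unmixed cells, and members with a lower share of T cells in KO 8 unthinned, 6 in 1 random thinning and 7 as the mean over thinnings. No paired analysis was possible because each group has 1 library. The spread between mice was not measured, and depth limits Itgae, with 30 UMIs in all, and the 22 S1pr1 UMIs of unmixed KO cells.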

Other observations

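Itgae, which marks cross-presenting dendritic cells as well as resident T cells, was also seen in dendritic cells and microglia. It was 166 CPM in 19 KO dendritic cells and 225 CPM in 20 WT dendritic cells, too few to compare, and in microglia 4.73 CPM in KO and 6.13 CPM in WT. Microglia held 60.2% of all Itgae UMIs of kept cells in KO and 58.5% in WT. In kept NK cells Klf2 was 727 CPM in KO and 802 CPM in WT, and Klf3 had 4 UMIs in KO and 18 in WT.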
